A study of Homo sapiens with 2 samples.

Results

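NeuroD1 binding was examined at 8 genes tied to neuroblastoma susceptibility or to telomere upkeep: BARD1, LIN28B, HACE1, DUSP12, CASC15, NBAT1, TERT and ATRX. A peak was counted for a gene when it overlapped the RefSeq gene body or lay up to 20 kb from either end. The 8 genes were taken from 59675 RefSeq genes, and 3 of the 6183 peaks of the library met the rule, at LIN28B and DUSP12. The study mapped NeuroD1 by ChIP-seq, which sequences the DNA pulled down with an antibody, in wild-type IMR-32 cells, a neuroblastoma line with amplified MYCN. It comprised 1 NeuroD1 ChIP library, with a peak list, and 1 input library of sheared chromatin without antibody, which was not analysed here. The labels name a NeuroD1 antibody, whereas the supplementary ChIP-seq methods name one against H3K27Ac, and the list was used as labelled. Its peaks lay on 23 chromosomes, with a median of 17 ChIP reads at the summit (8 to 272), and its sequencing depth is unknown. With 1 library and no replicate, no test between samples was possible, and every value describes this library alone.

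NeuroD1 is a bHLH transcription factor of neurons and endocrine cells that pairs with an E protein and binds E-boxes, the sequence CANNTG. BARD1, LIN28B, HACE1, DUSP12 and the lncRNA genes CASC15 and NBAT1 lie at loci where common variants were associated with neuroblastoma. TERT, the catalytic subunit of telomerase, and ATRX, a chromatin remodeller whose loss accompanies the alternative lengthening of telomeres (ALT), mark the different routes by which these tumors keep their telomeres.

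The peak in the DUSP12 window and the first of the LIN28B peaks covered or adjoined gene starts, and parts of their sequence are shown so that the DNA under each summit can be read. The second LIN28B peak overlapped no promoter window, and its sequence is not shown. The stretches are forward strand sequence of GRCh38.p14 taken from the RefSeq promoter windows, each of which runs from 250 bases before to 50 bases after a start site. Capitals mark the summit and 10 bases on each side of it. The first stretch is chr1:161766172-161766319, from the start of the peak in the DUSP12 window to the base before the ATF6 start. The second is chr6:104940478-104940615, the 138 of 220 bases of the first LIN28B peak that fell in the LIN28B-AS1 window.
Peak in the DUSP12 window: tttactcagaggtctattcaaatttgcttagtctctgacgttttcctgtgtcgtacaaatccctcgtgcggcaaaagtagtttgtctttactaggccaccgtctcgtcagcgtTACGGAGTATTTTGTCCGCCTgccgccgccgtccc
First peak at LIN28B: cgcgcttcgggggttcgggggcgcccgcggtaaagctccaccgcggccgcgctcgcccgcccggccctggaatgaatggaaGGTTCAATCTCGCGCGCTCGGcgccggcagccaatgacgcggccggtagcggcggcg
The word CANNTG occurred 0 times on either strand in the 267 bases of the peak in the DUSP12 window. It also occurred 0 times in the 138 bases at LIN28B. Of all 35116 promoter windows, which are longer at 300 bases, 68.7% held it. The share among windows overlapping a peak was not computed, so the absence of the word is not informative about binding. GC content was 51.7% over the former and 75.4% over the 138 bases at LIN28B. The absence of the word covers only these bases, since 82 bases of the first LIN28B peak and the whole of the second lay outside the windows.

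A peak was found for 2 of the 8 genes, which is 25%, against 17.6% of all RefSeq genes under the same rule. Among protein-coding genes the share was 29.7%, and among lncRNA genes it was 14.8%. Of the 6 protein-coding members, LIN28B and DUSP12 had a peak and BARD1, HACE1, TERT and ATRX had none. Both lncRNA members, CASC15 and NBAT1, had none. The windows of the 8 genes covered 1.5 Mb without double counting and held 2.0 peaks per Mb, against 2.5 per Mb over the windows of all genes and 3.11 per Mb over those of protein-coding genes. The rate of the members rests on 3 peaks, and its difference from the others was not tested.

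LIN28B encodes an RNA-binding protein that blocks the maturation of let-7 microRNAs. It had 2 peaks, and both lay in the gene body on chromosome 6 (GRCh38, 104937026 to 105083332). The first peak ran from 104940396 to 104940615, with its summit at 104940569. It was enriched 4.52-fold, where the fold divides the pileup of ChIP reads plus 1 by the local background plus 1, at a −log10 q of 2.57. At the summit lay 11 reads (95% exact Poisson interval 5.49 to 19.7) against a background of 1.61. Of all peaks, 5.90% had a lower fold enrichment. This peak covered the start of LIN28B-AS1, a lncRNA gene on the reverse strand, with the summit 42 bp upstream of that start.

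The second LIN28B peak ran from 104941514 to 104941660, and was enriched 5.07-fold at a −log10 q of 3.59. At its summit, 104941568, lay 12 reads (6.20 to 21) against a background of 1.52, and 12% of all peaks had a lower fold enrichment. The intervals for reads of the LIN28B peaks overlapped, so their order was within counting error. The peaks lay on either side of the LIN28B start at 104940965, with the first summit 396 bp upstream and the second 603 bp downstream. The gene body itself begins at 104937026, before both peaks, and that position had no promoter window here. Their edges were 898 bp apart. Such pairs were not rare in the library, as 593 peaks (9.59%) had another peak within 1000 bp, a distance chosen after these values were seen. RefSeq also lists a LIN28B start at 104957107, and the nearer of these summits was 15539 bp upstream of it. The promoter window of that start held the E-box CACGTG at 1 place. The 300 bp promoter window of the start at 104940965 held no peak and ended 100 bp short of the first one.

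DUSP12 encodes a dual specificity phosphatase of the atypical class. Its only peak lay outside the gene on chromosome 1 (161749786 to 161757238), at 8.93 kb beyond the end with the higher coordinate. The peak ran from 161766172 to 161766438, and was enriched 9.45-fold at a −log10 q of 14.2. At its summit lay 22 reads (13.8 to 33.3) against a background of 1.39, which at that background corresponds to a fold enrichment from 6.08 to 14.1. It ranked 1175 of 6183 by fold enrichment, and 81.0% of peaks were lower.

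The genes at this peak were ATF6, an endoplasmic reticulum stress sensor and transcription factor, its divergent lncRNA ATF6-DT and the lncRNA LOC124904444. The summit at 161766295 lay 25 bp upstream of the ATF6 start, 148 bp upstream of the ATF6-DT start and 154 bp upstream of the LOC124904444 start. By position it was therefore a peak at the ATF6 and ATF6-DT starts that entered the DUSP12 window by distance. Among protein-coding genes with a peak by this rule, 27.9% likewise had their nearest peak between 3 and 20 kb away, 54.0% had it in the gene body and 18% within 3 kb.

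The depth behind the LIN28B peaks and the peak in the DUSP12 window was also compared. The peak in the DUSP12 window had 22 reads at its summit, above the library median of 17, whereas the LIN28B peaks had 11 and 12. The median fold enrichment of all peaks was 6.79, and that of the best peak per protein-coding gene under the 20 kb rule was 7.26. Both values lie between the peak in the DUSP12 window and the LIN28B peaks. The interval for reads of the peak in the DUSP12 window (13.8 to 33.3) overlapped those of both LIN28B peaks (5.49 to 19.7 and 6.20 to 21). The difference was not tested.

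HACE1, a HECT-type E3 ubiquitin ligase that acts on active RAC1, lies beside LIN28B on chromosome 6 (104728094 to 104859919). Its window of 172 kb held no peak, and the nearest was the first LIN28B peak, 80.5 kb away. On the other side the nearest peak lay 370 kb away, with a fold enrichment of 6.55. One of its promoter windows held the E-box CAGCTG.

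CASC15 and NBAT1 are lncRNA genes of the neuroblastoma locus on the short arm of chromosome 6, where NBAT1 (22134602 to 22147193) lies within the body of CASC15 (21666413 to 22195820) on the opposite strand. CASC15 is the longest member at 529 kb, and its window of 569 kb would hold 1.42 peaks at the rate of all gene windows, coding and noncoding. The window held none, and the difference was not tested. The nearest peak, 72.5 kb before the CASC15 start, was at the start of SOX4, a SOX transcription factor gene. It ran from 21593581 to 21593884, at 9.16-fold with 18 reads (10.7 to 28.4) and a −log10 q of 11.8. A second peak, 6.24 kb from SOX4 on the side away from CASC15, reached 13.6-fold with 29 reads (19.4 to 41.6) and ranked 317. On the far side of CASC15 the nearest peak lay 731 kb away, so that both lncRNA genes sat in a stretch of 1.33 Mb without a peak. Of the gaps between neighbouring peaks on a chromosome, 91.2% were shorter than this stretch. Each gap counts equally here, whereas a long gap holds more genes, so this share overstates how unusual such a place is for a gene.

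BARD1, the partner of BRCA1 in a ubiquitin ligase of DNA repair, lies on chromosome 2 (214725646 to 214809683) and had no peak. The nearest, 502 kb away, overlapped ATIC, a purine synthesis gene, at 6.27-fold with 12 reads (6.20 to 21) and a −log10 q of 5.21. On the other side the nearest peak was 1441 kb away at SPAG16, with a fold enrichment of 7.71. The stretch between these peaks was 2.03 Mb, against a median gap of 0.134 Mb and a 95th percentile of 2.01 Mb. The same limit holds, as gaps are counted equally whatever number of genes they hold. Its promoter window held none of the searched E-box words given under TERT.

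TERT, on chromosome 5 (1253167 to 1295068), had no peak. Its flanking peaks were 307 kb away on one side, with a fold enrichment of 5.79 and 11 reads (5.49 to 19.7), and 3435 kb away on the other, with 9.83. This stretch of 3.78 Mb was longer than 98.5% of gaps, again with each gap counted equally. By distance to its nearest peak, TERT was farther than 72.3% of protein-coding genes. The TERT promoter window held the E-box CAGCTG at 1 place, and at another 1 place it held CACGTG, the word bound by MYC proteins. The first word occurred in 17.9% and the second in 7.26% of all 35116 windows, counted on both strands since both words read the same on either. CAGATG, the word most often linked to NeuroD factors, was searched together with its reverse complement CATCTG. It occurred in 0 of the 8 promoter windows of the 6 members with an entry, against 14.7% of all windows. Among the 2921 windows overlapping a peak the share was lower, 8.73%, so the absence of the word is not informative about binding. None of these 8 windows overlapped a peak, against 8.32% of all windows.

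ATRX, on chromosome X (77504880 to 77786216), had no peak in a window of 321 kb, where the rate of all gene windows would give 0.804. The nearest peak was 318 kb away at PGK1, a glycolytic enzyme gene, and was among the strongest of the library, at 44.8-fold with 92 reads (74.2 to 113), a −log10 q of 133 and rank 6. On the other side no peak lay within 5196 kb. Chromosome X as a whole held 27 peaks, and 29 of its 848 protein-coding genes (3.42%) had one by the 20 kb rule, against 28.0% on chromosome 1, 31.6% on chromosome 2, 24.9% on chromosome 5 and 29.4% on chromosome 6. Whether the lack of a peak belongs to ATRX or to chromosome X as a whole cannot be told apart.

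**Figure D1:**
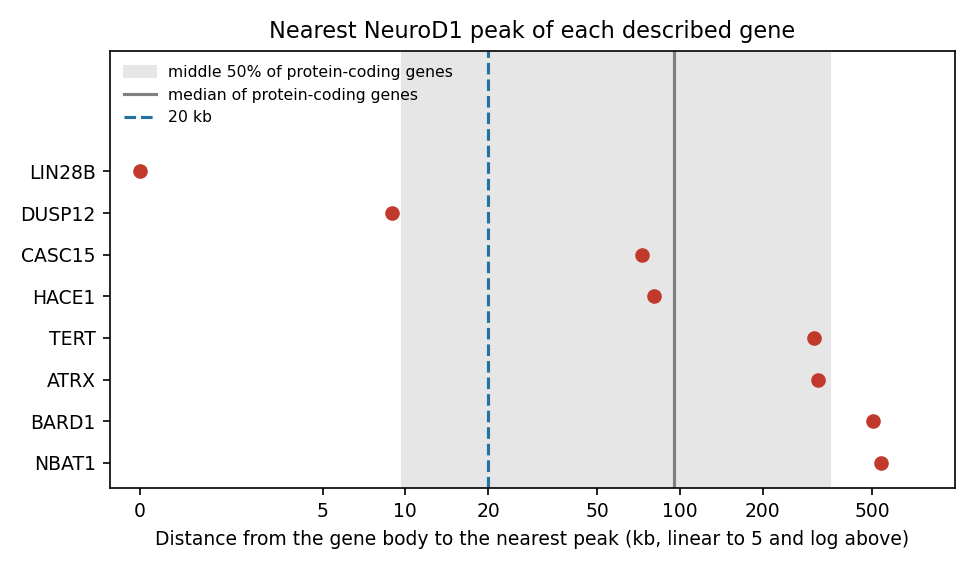
Distance in kb (linear to 5 kb, log above) from each of the 8 gene bodies to its nearest peak, with the 20 kb limit (dashed), the median of protein-coding genes (94.9 kb, grey line) and the middle 50% of these (9.75 to 352 kb, shaded). LIN28B and DUSP12 lie within the limit, and BARD1 (502 kb) and NBAT1 (541 kb) lie beyond the shaded range. NBAT1 is a lncRNA gene and lies within the middle 50% of lncRNA genes (55.2 to 563 kb, not drawn).

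Ordered by distance to the nearest peak, LIN28B (0 kb) and DUSP12 (8.93 kb) were followed by CASC15 (72.5 kb) and HACE1 (80.5 kb), both nearer than the median of protein-coding genes, 94.9 kb. TERT (307 kb) and ATRX (318 kb) were farther than 72.3% and 73.0% of protein-coding genes, and BARD1 (502 kb) and NBAT1 (541 kb) were farther than 81.3% and 82.5%. A missing peak sets only a limit. At the lowest background of 1.04, shared by 32.8% of peaks, no peak with under 8 reads at the summit entered the list, so weaker binding was not detectable at this depth.

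Genes related to the members were read in 8 lists, of 104 genes in all. They comprised partners or pathway genes of members, other neuroblastoma predisposition loci and other atypical dual specificity phosphatases. Of these 104 genes, 45 had a peak by the same rule (43.3%), against 17.6% of all RefSeq genes and 29.7% of protein-coding genes. As the lists were chosen with earlier results of these data known, the difference cannot be read as enrichment and was not tested. The lists mix coding and noncoding genes, and some of their genes share a peak.

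Of 8 telomerase partners, 3 had a peak. TERC, the RNA template of telomerase, had a peak across the higher-coordinate end of the gene on chromosome 3 (169765012 to 169765241), enriched 12.5-fold with 25 reads (16.2 to 36.9) and a −log10 q of 20.6. Of its 230 bases, 49 overlapped TERC, and its summit lay 42 bp outside the gene. ACTRT3 was within 3 kb of it. NHP2, a protein of the same particle, had a promoter peak of 5.31-fold. WRAP53, which guides telomerase to Cajal bodies, had 3 peaks. The only one in the gene was weak, at 4.83-fold with 9 reads (4.12 to 17.1). Another, of 14-fold, lay 1.51 kb from the gene, near EFNB3. One of 61.3-fold in its window stood at DNAH2, 13.5 kb away. The nearest peak to TERT was 307 kb away.

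Of 10 genes of shelterin and telomere capping, 4 had a peak, led by STN1 (7.63-fold), RTEL1 and ACD (6.54-fold, 7.64 kb away). RTEL1 had a peak of 6.27-fold in the gene and one of 6.75-fold 4.0 kb away, beside STMN3. Among 11 genes of ATRX partners and ALT, 5 had one. SLX4IP, an ALT regulator, had a peak of 17.3-fold with 35 reads (24.4 to 48.7) at 0.607 kb from the gene, near MKKS. The genes for the histone that ATRX and DAXX deposit both had one in the body, with 10-fold at H3-3B and 8.04-fold at H3-3A.

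Of 12 partners of BARD1 and BRCA1, 5 had a peak, between 4.17-fold and 7.21-fold. The highest were at BABAM1 (7.21-fold), BABAM2 (6.79-fold) and UIMC1 (6.27-fold), which belong to the BRCA1-A complex. BRCA1 itself, named after its value was seen, had a promoter peak of 4.17-fold with 16 reads (9.15 to 26.0) over a background of 3.0, shared with NBR2.

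Of 25 genes of the LIN28 and let-7 pathway, 12 had a peak, comprising 7 of 13 protein genes and 5 of 12 let-7 family genes. TUT7, a uridylyltransferase that tails let-7 precursors, had the highest, a promoter peak of 16.4-fold with 33 reads (22.7 to 46.3) and rank 167. DGCR8, of the Microprocessor complex, had a promoter peak of 11.1-fold with 22 reads (13.8 to 33.3). MIRLET7A1, MIRLET7F1 and MIRLET7D, which lie next to each other on chromosome 9, shared peaks of 6.36-fold and 8.15-fold, the stronger 8.87 kb from MIRLET7A1 and at the host transcript MIRLET7A1HG. MIRLET7E had peaks of 8.20-fold at 3.47 kb and 6.27-fold at 11.3 kb, both near SPACA6, and MIRLET7I one of 7.22-fold at 0.787 kb. The mature products of these 5 genes are given from RefSeq because they belong to the let-7 family, on which LIN28B acts. How far it acts on each member was not examined. Capitals mark the seed, bases 2 to 8, which was the same in all 12 family genes.
hsa-let-7a-5p: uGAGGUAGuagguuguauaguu
hsa-let-7f-5p: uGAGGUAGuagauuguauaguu
hsa-let-7d-5p: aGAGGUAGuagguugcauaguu
hsa-let-7e-5p: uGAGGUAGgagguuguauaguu
hsa-let-7i-5p: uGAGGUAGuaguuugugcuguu
The other 7 genes of the family had no peak, although MIRLET7A2, MIRLET7A3 and MIRLET7F2 among them give the same mature let-7a and let-7f.

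Of 8 genes related to CASC15, NBAT1 or HACE1, 4 had a peak. Besides SOX4, these were CHD7, a chromatin remodeller (11.6-fold, 23 reads, 14.6 to 34.5, in the gene), USP36, a deubiquitinase (9.9-fold, at the promoter), and EZH2, a histone methyltransferase (4.58-fold, at the promoter). RAC1 and OPTN, both linked to HACE1, were among the 4 without one. Of 17 genes at other predisposition loci, 8 had a peak. Among them, CDKN1B had a peak of 8.20-fold at 3.07 kb and HSD17B12 one of 7.84-fold. Of 13 other atypical dual specificity phosphatases, 4 had one, namely DUSP28, DUSP15 (7.96-fold, in the gene), DUSP26 (7.23-fold, in the gene) and DUSP3 (6.47-fold, 12.7 kb away). DUSP28 had a peak of 7.18-fold in the gene and one of 10.1-fold 19.4 kb away, near CAPN10. Among 7 noradrenergic neuroblastoma markers, PHOX2A, HAND2 and DBH had a peak, which does not measure their expression.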

How the data were processed

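The 1 NeuroD1 ChIP peak list was used. Per the labels, the authors' processing notes name BWA 0.7.17, MACS2 2.2.7 and hg38, whereas the deposited peak names carry macs3, and the control and q threshold are not given in the sources used here. The deposited values are the fold enrichment (a ratio of pileup to background with 1 added to each), the −log10 p-value and −log10 q at the summit, a score made from −log10 q, and a ratio of fold to width, which was not used. Total reads are unknown. ChIP reads and background were solved from fold and −log10 p with the Poisson formula of MACS. The weight of 1 read, 0.980, came from the even steps of recurring folds. Of 6183 peaks, 6182 were solved within 1% of the −log10 p. When tested on 3000 simulated peaks, the reads of 99.9% were recovered. The simulation left out read counts as low as the lowest in the list and backgrounds as high as the highest, so recovery there was not tested. Intervals are 95% exact Poisson intervals and cover counting error only. Genes and promoters were RefSeq GRCh38.p14, with 6 of the 8 members among the promoters. Computation used Python 3.11.15 with scipy 1.17.1, pandas 2.3.3 and numpy 2.4.6, and plots matplotlib 3.10.9.

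The members and lists were chosen with earlier results of these data known. All peaks of the members are named, with at most 3 genes per list by highest fold, genes at those peaks, and others where a count is 5 or lower. The search for CANNTG was added after the data were seen. Alternatives were other distances, a −log10 q or a fold of at least 5, the summit, and rank by −log10 q. A value for 1 listed gene is not reported here.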

Additional observations from a re-analysis of the deposited data

How the results depend on the processing

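The number of members with a peak fell from 2 to 1 with the gene body alone and with 3 kb, where LIN28B remained and the peak in the DUSP12 window lies outside by construction, and to 1 with a −log10 q of at least 5, where DUSP12 remained and both LIN28B peaks lie below the limit. At that limit the peaks at members fell from 3 to 1 and the peaks per Mb from 2.0 to 0.666. The number of members stayed 2, and that of peaks 3, with 50 kb and with the summit, and with a fold of at least 5 there were 2 members and 2 peaks. Genes of the lists with a peak fell from 45 to 27 with the gene body alone, as a shorter distance must give. Of 40 values for single lists, 5 moved by over 1.5 times, all lower. The rank of the highest peak was 1175 by fold and 1204 by −log10 q. No paired analysis was possible because the only peak list comes from 1 sample. No result has a replicate check, and 11 or 12 reads at a LIN28B summit limit its ranking.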
